A study of Mus musculus with 18 samples.

Results

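Signals of FGF ligands and receptors were examined in FVB/N embryonic stem (ES) cells. The members were 9 genes, the ligands Fgf4, Fgf5, Fgf8, Fgf2 and Fgf7 and the receptors Fgfr1, Fgfr2, Fgfr3 and Fgfr4. Every probe set (the short probes on a chip that together measure a transcript) was taken whose chip annotation names one of these genes and no other. This gave 17 probe sets of the 36701 that are not controls, and 9 genes of 15964 named on the chips. There were 6 probe sets for ligands and 11 for receptors. U74Av2 carried 12 of them, U74Bv2 carried 0 and U74Cv2 carried 5.

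The STAT3-MER cells were FVB/N ES cells of the line 743, grown with 4-hydroxytamoxifen (OHT) and without LIF. STAT3-MER joins STAT3 to part of the mouse estrogen receptor, mutated so that OHT switches it on, and the hemizygous transgene is driven by the chicken β-actin promoter. These cells were set against wild type (WT) FVB/N ES cells grown with LIF. Each group had 3 independently cultivated dishes, and each dish was hybridized to 3 chips, 18 arrays in all. Transgene, cell line and culture supplement differ together between the groups and cannot be told apart, and both lines were derived on a layer of embryonic feeder fibroblasts.

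FGF ligands bind receptor tyrosine kinases together with heparan sulfate, and the receptors signal through adaptors to the ERK cascade. In mouse ES cells, autocrine FGF4 acts through ERK to prepare the cells for leaving the undifferentiated state, while LIF and STAT3 act to hold them in it. In the blastocyst, FGF4 from the epiblast is received by FGFR1 and FGFR2 and drives formation of the primitive endoderm.

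The regions around the transcription starts are shown for 3 members. Fgf4 lay above the background level set out below in every dish, and Fgf5 lay above it in none. Fgfr2 had the most probe sets, none of them above that level in all dishes of a group. RefSeq windows of GRCm38.p6 hold 250 bases before and 50 after a start, and 8 windows matched 7 of the 9 genes (Fgf8 and Fgfr1 had no entry). The windows printed lie at chr7:144861136-144861435 on the plus strand (Fgf4), chr5:98253934-98254233 on the plus strand (Fgf5) and chr7:130266759-130267058 on the minus strand (Fgfr2), each 5′ to 3′ on the strand of the gene. Capitals mark matches on either strand to the letters GGGCGG, which GC boxes hold, to CCAAT, or to TATAAA, which TATA boxes hold. Only these exact letters were marked, and a match does not show that a stretch works as such a box. The TATAAA of Fgf5 lies within the 50 bases after the start.
Fgf4: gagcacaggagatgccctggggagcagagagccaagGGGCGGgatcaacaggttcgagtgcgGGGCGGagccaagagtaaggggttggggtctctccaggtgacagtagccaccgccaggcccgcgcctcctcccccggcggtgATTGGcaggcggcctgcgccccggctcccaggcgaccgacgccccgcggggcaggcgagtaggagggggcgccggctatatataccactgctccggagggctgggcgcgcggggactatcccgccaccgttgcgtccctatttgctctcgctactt
Fgf5: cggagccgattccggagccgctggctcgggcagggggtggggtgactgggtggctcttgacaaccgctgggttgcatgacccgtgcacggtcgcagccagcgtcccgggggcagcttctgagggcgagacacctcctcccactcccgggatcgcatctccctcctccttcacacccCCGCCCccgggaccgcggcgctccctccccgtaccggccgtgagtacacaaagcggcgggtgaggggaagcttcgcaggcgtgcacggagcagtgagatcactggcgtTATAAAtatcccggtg
Fgfr2: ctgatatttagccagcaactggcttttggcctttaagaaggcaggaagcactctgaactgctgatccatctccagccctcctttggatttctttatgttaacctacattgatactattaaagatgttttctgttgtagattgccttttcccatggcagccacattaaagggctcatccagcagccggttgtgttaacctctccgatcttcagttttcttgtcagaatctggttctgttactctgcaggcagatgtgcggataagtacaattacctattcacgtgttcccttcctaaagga

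The Fgf4 window had 69.7% G or C bases and 28 CpG dinucleotides, the Fgf5 window 68.3% and 29, and the Fgfr2 window 43.7% and 4. The medians over all 32851 windows were 52.7% and 7. GGGCGG occurred in 6 of the 8 member windows (Fgf2, Fgf4, Fgf5, Fgfr3 and Fgfr4) and in 35.7% of all windows. CCAAT occurred in 3 (Fgf4, Fgf7 and Fgfr3), against 37.4% of all windows, and TATAAA in 1 (Fgf5), against 13.6%. TTCNNNGAA, the palindrome that STAT proteins recognise, was matched in 0 of the 8 windows and in 8.3% of all windows, which says only that these letters are not in these stretches.

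In the check of the targeted gene, a probe set of Esr1, the source of the MER domain, read 25848, 25568 and 31548 in the STAT3-MER dishes, against 40.3, 19.7 and 9.25 in the WT dishes. All 10 ES cell markers lay above background in all 6 dishes. Of 24 measured feeder fibroblast markers, 14 did so as well. Fewer cells of a type and less RNA per cell cannot be told apart in such bulk samples. Replicate numbers in the labels were taken to mark a dish, and one U74Av2 array of STAT3-MER cells, which has no number, was taken as number 2. It could not be checked that WT 1 and WT 2 are each one and the same dish on every chip, so a dish number below holds for the chip it is given with.

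The deposited tables hold no detection call, so a background level was set from genes of differentiated tissues such as lens, testis and muscle. It is the 95th percentile of their signals on each array, which was 233 to 316 on U74Av2 (220 probe sets) and 441 to 828 on U74Cv2 (42 probe sets). Above this level in all 6 dishes were 3 of the 17 FGF probe sets, 1 of Fgf4 and 2 of Fgfr1, against 21.3% of all probe sets. By chip, these were 2 of 12 on U74Av2, where 31.1% of all probe sets did so, and 1 of 5 on U74Cv2, where 13.6% did. In the STAT3-MER dishes alone 3 FGF probe sets were above the level in all dishes, and in the WT dishes alone 6 were. The 3 further ones in WT, of Fgf8, Fgfr1 and Fgfr3, were above it in 2 of the 3 STAT3-MER dishes. On U74Cv2 the level itself was higher on the STAT3-MER arrays (751 to 828) than on the WT arrays (441 to 598), and the STAT3-MER signals of Fgf8 and Fgfr1 that missed it, 697 and 641, exceeded every WT level. With the 90th percentile as the level, the counts were 7 in the STAT3-MER dishes and 6 in the WT dishes, so the lower count in STAT3-MER cells depends on the level. The shares of all probe sets were counted for all 6 dishes together, and not per group or at other levels. The counts per group are therefore not read as a result about the members.

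**Figure D1:**
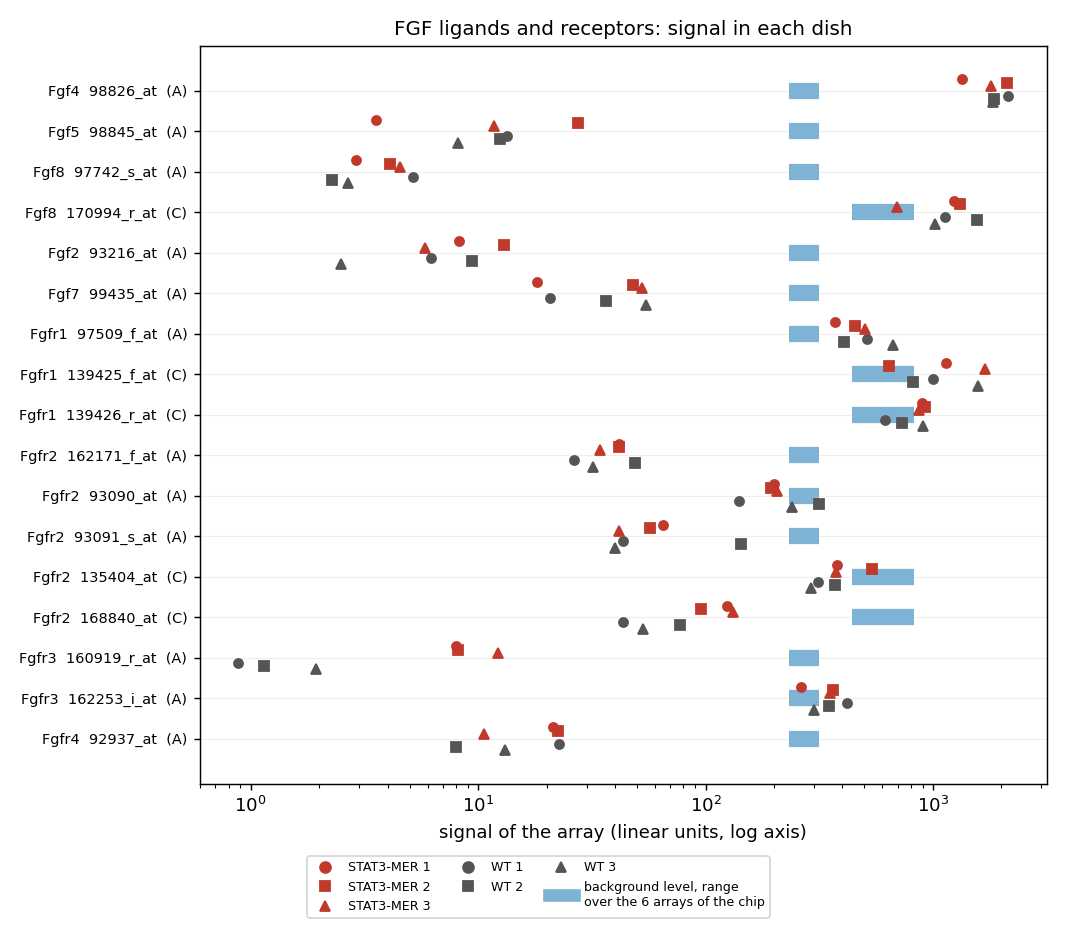
Signal of each of the 17 FGF probe sets in each dish, on a log axis, with the 3 STAT3-MER dishes (red) above the 3 WT dishes (grey) in each row; A and C mark U74Av2 and U74Cv2, and the blue bar spans the background level over the 6 arrays of the chip. Fgf4 lies to the right of the bar in every dish, and Fgf5, Fgf2, Fgf7 and Fgfr4 lie far to its left.

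None of the 17 FGF probe sets passed the test in either direction (limma on log2(signal + 32), adjusted p = 0.9996 for each, adjusted over all 36701 probe sets). Over the whole set, 0.00272% passed as higher in STAT3-MER cells, which is the Esr1 probe set alone, and 0% as lower. At an unadjusted p under 0.05, 1 FGF probe set was higher (1.88% of all probe sets) and 0 were lower (1.57% of all). The groups did not overlap for 3 FGF probe sets, with STAT3-MER higher (4.5% of all probe sets did so), and for 0 with STAT3-MER lower (3.63% of all). By the criteria of the study's methods (a ratio of means over 1.5, a difference over 100 and p under 0.1), 0 were higher, where 1.1% of all were, and 0 were lower, where 0.872% were. With 3 dishes against 3, an exact permutation test of a single probe set cannot give a two-sided p below 0.1, and p-values here measure only the spread between dishes of a line.

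**Figure D2:**
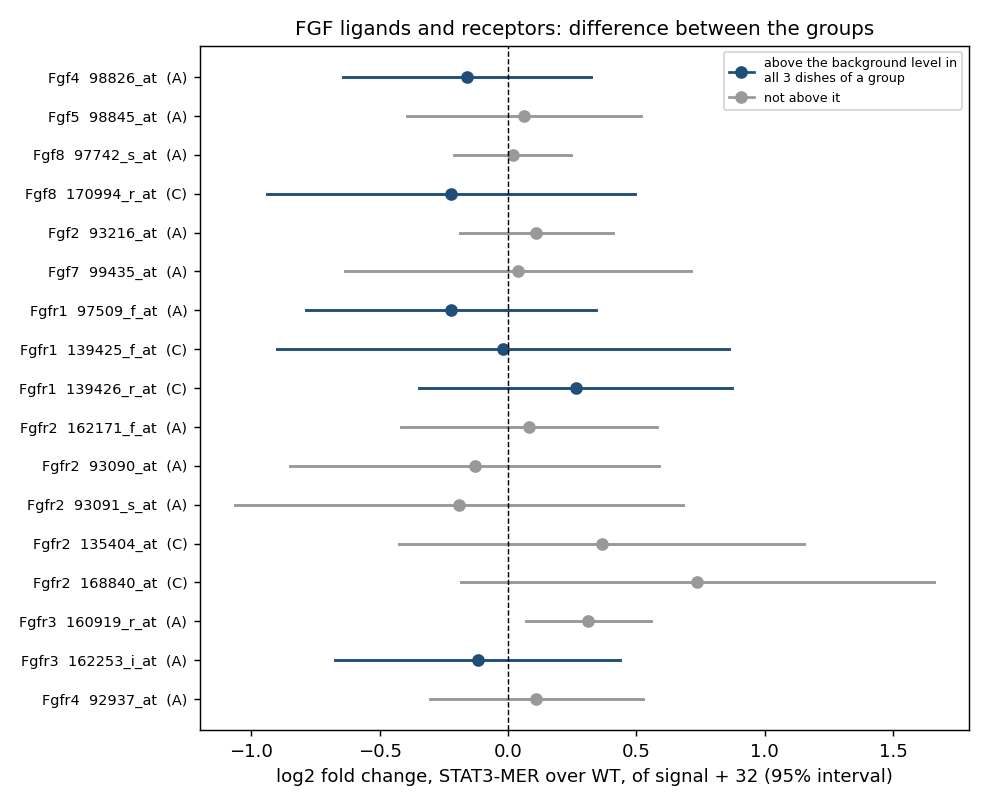
Log2 fold change of signal + 32, STAT3-MER over WT, for each of the 17 FGF probe sets, with the 95% interval of the limma fit; blue marks probe sets above the background level in all 3 dishes of a group. Every interval includes 0 except that of Fgfr3 160919_r_at, whose signals were below background in all dishes.

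Fgf4, the ligand that ES cells make themselves, was read by 1 probe set (98826_at, chromosome 7). It gave signals of 1343, 2128 and 1809 in the STAT3-MER dishes, against 2139, 1847 and 1832 in the WT dishes. The groups overlapped, and the lowest value was that of STAT3-MER dish 1. The means were 1759.7 ± 395 in STAT3-MER cells and 1939 ± 173 in WT cells (SD, n = 3 each), and the log2 fold change was -0.16 (standard error 0.21). The 95% interval of the fold change ran between 0.641 and 1.25. Without STAT3-MER dish 1 the log2 fold change was 0.02.

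Fgf5, a ligand that marks the epiblast after implantation and primed cells, gave 3.57, 27.4 and 11.8 in the STAT3-MER dishes, against 13.4, 12.5 and 8.16 in the WT dishes. All 6 values lay below the background level, and the STAT3-MER dishes held both the highest and the lowest. The log2 difference of 0.06 (standard error 0.20) is that of values near the bottom of the scale, and for such probe sets, below the level in both groups, log2 differences are given as output of the fit and not as fold changes of expression. Of 9 measured epiblast and primitive streak markers, 1 was above background in all 6 dishes, where 31.7% of all genes on the chips were, and 0 passed the test.

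Fgf8, a ligand of the primitive streak and later signalling centres, was read by 2 probe sets. On U74Av2, 97742_s_at gave 2.91, 4.09 and 4.53 in the STAT3-MER dishes, against 5.20, 2.27 and 2.68 in the WT dishes, below background throughout. On U74Cv2, 170994_r_at gave 1234, 1310 and 697 in the STAT3-MER dishes, against 1132, 1570 and 1019 in the WT dishes, above background in all dishes except STAT3-MER dish 3. Its groups overlapped, and the log2 fold change was -0.22 (standard error 0.32). A letter in the name of a probe set marks possible binding of other transcripts (s, f) or oligonucleotides chosen under relaxed design rules (r, i). Both Fgf8 probe sets carry one, so whether Fgf8 was expressed is not settled by these signals.

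Fgf2, a ligand of fibroblasts and many other cells, gave 8.27, 13.0 and 5.82 in the STAT3-MER dishes, against 6.18, 9.37 and 2.48 in the WT dishes (93216_at). Fgf7, a ligand of mesenchymal cells that acts on the epithelial form of FGFR2, gave 18.1, 48.2 and 52.6 in the STAT3-MER dishes, against 20.6, 36.6 and 54.9 in the WT dishes (99435_at). Both genes lay below background in all 6 dishes, and their groups overlapped. The log2 differences were 0.11 (standard error 0.13) for Fgf2 and 0.04 (standard error 0.29) for Fgf7.

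Fgfr1, the main FGF receptor of ES cells, was read by 3 probe sets, all with a suffix. On U74Av2, 97509_f_at gave 370.1, 456 and 505 in the STAT3-MER dishes, against 512, 407 and 667 in the WT dishes. It was above background in every dish, the groups overlapped, and the log2 fold change was -0.22 (standard error 0.25), with an interval of the fold change between 0.580 and 1.27. On U74Cv2, 139425_f_at gave 1139, 641 and 1686 in the STAT3-MER dishes, against 1002, 815 and 1582 in the WT dishes. Its log2 fold change was -0.02 (standard error 0.39), and STAT3-MER dish 2 was the only one below background. The other U74Cv2 probe set, 139426_r_at, gave 893, 925 and 864 in the STAT3-MER dishes, against 613, 731 and 899.9 in the WT dishes, all above background. The log2 fold change was 0.26 (standard error 0.27), so the 3 readings of Fgfr1 lay on either side of 0, each by less than its standard error. As all 3 carry a suffix, the limit given for Fgf8 holds for Fgfr1 as well.

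Fgfr2, the receptor that is most abundant in epithelia and in the extraembryonic lineages of the blastocyst, was read by 5 probe sets, 3 on U74Av2 and 2 on U74Cv2. On U74Av2, 93090_at gave 201, 194 and 206 in the STAT3-MER dishes, against 140.2, 316 and 241 in the WT dishes, and 1 dish, WT 2, was above background. The STAT3-MER values lay inside the WT range, with a log2 difference of -0.13 (standard error 0.31). The second, 93091_s_at, gave 65.3, 57.2 and 41.6 in the STAT3-MER dishes, against 43.5, 143 and 40.1 in the WT dishes, where WT 2 was again the highest. The third, 162171_f_at, gave 34.5 to 41.6 in the STAT3-MER dishes, against 26.4 to 49.2 in the WT dishes.

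The 2 probe sets of Fgfr2 on U74Cv2 were among the 3 whose groups did not overlap. Signals of 168840_at were 124, 95.8 and 132 in the STAT3-MER dishes, against 43.6, 77.6 and 53.0 in the WT dishes, with a log2 difference of 0.74 (standard error 0.41, unadjusted p = 0.103 by limma). Signals of 135404_at were 377, 540.2 and 375 in the STAT3-MER dishes, against 314, 369 and 289.8 in the WT dishes, with a log2 difference of 0.36 (standard error 0.35). Both lay below the background level of their chip in all 6 dishes. For 135404_at, the groups overlapped once the arrays were scaled by quantiles or by their medians. Neither has a suffix, and neither does 93090_at, whose difference had the opposite sign. The intervals of all 5 probe sets include 0 and overlap each other.

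**Figure D3:**
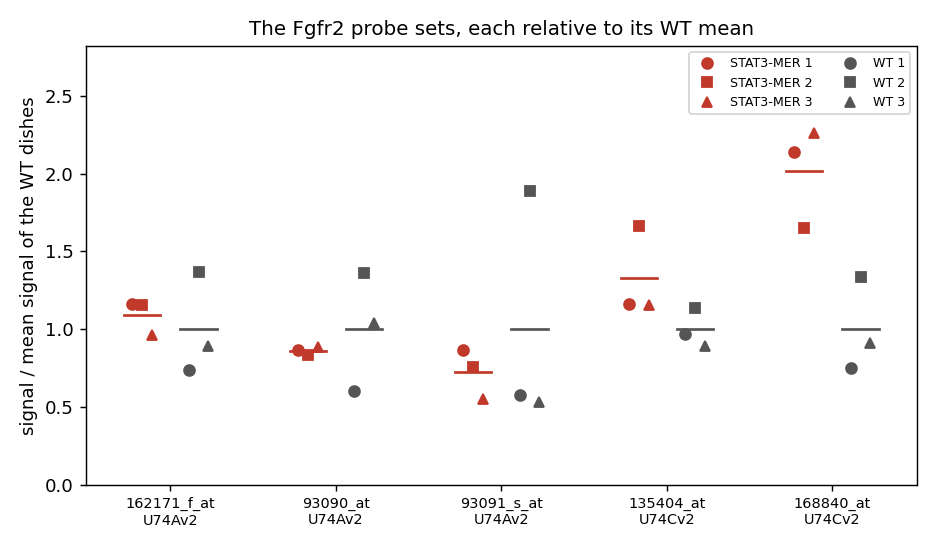
Signals of the 5 Fgfr2 probe sets, each divided by its mean over the WT dishes, with STAT3-MER dishes (red) left of WT dishes (grey) and a line at each group's mean. The STAT3-MER dishes lie above all WT dishes for 135404_at and 168840_at on U74Cv2 and within or overlapping their range for the 3 probe sets on U74Av2.

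Fgfr3, a receptor best known from cartilage and the nervous system, was read by 2 probe sets on U74Av2. Its 162253_i_at gave 262, 362 and 351 in the STAT3-MER dishes, against 418, 348 and 300 in the WT dishes. It was above background in all dishes except STAT3-MER dish 1. The groups overlapped, and the log2 fold change was -0.12 (standard error 0.24). Its 160919_r_at gave 7.98, 8.13 and 12.2 in the STAT3-MER dishes, against 0.884, 1.14 and 1.93 in the WT dishes. The groups did not overlap and the log2 difference was 0.31 (standard error 0.11, unadjusted p = 0.0174 by limma, or 0.0990 with no trend in the variance), but all 6 values lay far below the level of 233 to 316 and no fold change is read from them. Both Fgfr3 probe sets carry a suffix and they differ in their place against background, so whether Fgfr3 was expressed is not settled either. Fgfr4, a receptor known from liver and muscle precursors, gave 21.3, 22.5 and 10.7 in the STAT3-MER dishes, against 22.7, 7.98 and 13.1 in the WT dishes (92937_at), below background throughout.

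Feeder fibroblasts are a known source of Fgf2, Fgf7 and Fgfr1, so their markers are given beside these members. On U74Av2, the summed signal of 24 fibroblast markers was 14384, 62148 and 46420 in the STAT3-MER dishes, against 54979, 24470 and 57697 in the WT dishes. The lowest sums within each group were those of STAT3-MER dish 1 and WT dish 2, and the highest of the 6 was 4.32 times the lowest. Of these markers, 14 were above background in all dishes and 4 in none. Fgfr1 97509_f_at was also lowest within each group in STAT3-MER dish 1 and WT dish 2, and Fgf7 was lowest in STAT3-MER dish 1 and WT dish 1. Fgf2 did not follow this order. It was lowest in STAT3-MER dish 3 (5.82) and WT dish 3 (2.48), and its highest WT value was in WT dish 2 (9.37). On U74Cv2 the sum of 6 markers was 5600, 5779 and 5414 in the STAT3-MER dishes, against 5139, 5683 and 6462 in the WT dishes, but 2 of them were above background in all dishes and 4 in none. The part of fibroblast RNA in the signals of the FGF members was not tested.

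**Figure D4:**
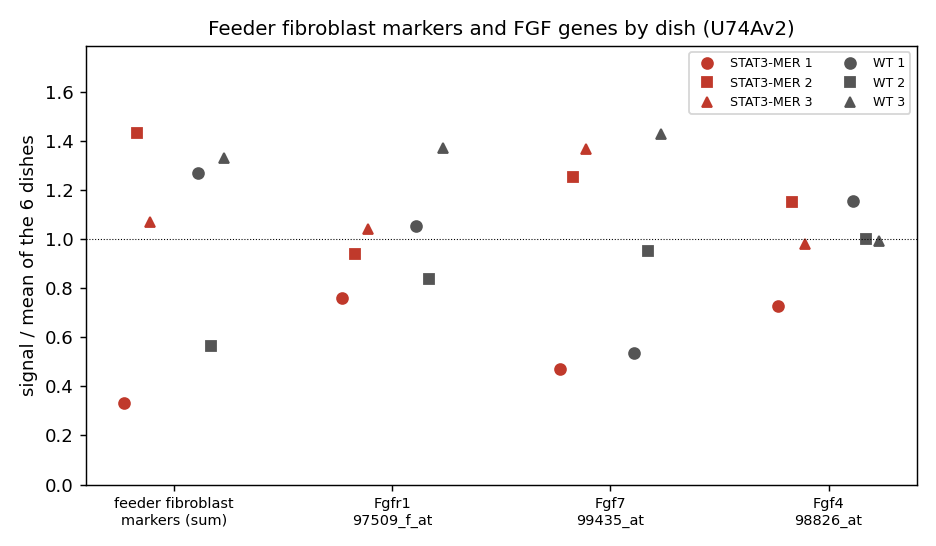
Summed signal of 24 feeder fibroblast markers and signals of Fgfr1, Fgf7 and Fgf4 on U74Av2, each divided by its mean over the 6 dishes, with STAT3-MER dishes (red) left of WT dishes (grey). STAT3-MER dish 1 is the lowest dish in all 4 columns, at 0.332 of the mean for the fibroblast markers and 0.726 for Fgf4. The other dishes do not keep one order. WT dish 2 is at 0.564 for the fibroblast markers, 0.837 for Fgfr1, 0.950 for Fgf7 and 0.999 for Fgf4.

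The genes whose log2 signals followed a member most closely over the 6 arrays are given as a description. For Fgf4, among 3505 probe sets on U74Av2, these were Fn1 (r = 0.99), Ext2 (r = 0.97) and Taf1b (r = 0.97). Fn1, which encodes fibronectin, gave 1345, 2259 and 2028 in the STAT3-MER dishes, against 2322, 2053 and 2024 in the WT dishes. It is one of the fibroblast markers summed above, but it did not follow their sum in every dish. That sum was 24470 in WT dish 2 and 57697 in WT dish 3, where Fn1 was nearly equal. Ext2 encodes an enzyme of heparan sulfate synthesis. For Fgfr1 139425_f_at, among 1227 probe sets on U74Cv2, they were Spin1 (r = 0.97), Mcts2 (r = 0.96) and Anapc15 (r = 0.96). The points share 6 arrays, and with so many candidates high values of r can arise by chance alone.

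Other parts of the pathway were counted from lists with 1 probe set per gene, and 0 genes passed the test in either direction in any of them. Of 15 measured other FGF ligands, 0 were above background in all 6 dishes, against 31.7% of all 15964 genes, and their median log2 difference was -0.02, beside 0.00 over all genes. Shares above background in the lists below are to be read against the same 31.7%. Over all 15964 genes, the groups did not overlap for 642 with STAT3-MER higher and for 559 with STAT3-MER lower. Single genes of a list whose groups did not overlap are to be read against these counts. The smallest p-values were those of Fgf21, an endocrine ligand, with 107, 75.6 and 95.9 in the STAT3-MER dishes, against 116, 355 and 176 in the WT dishes, and of Fgf15, an endocrine ligand of the gut, with 9.11 to 15.1 in the STAT3-MER dishes and 12.6 to 117 in the WT dishes. The groups did not overlap for Fgf21, and both genes were below background in every dish.

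Of 18 co-receptors and binding proteins, 4 were above background in all 6 dishes, with a median of -0.13. Gpc6, a glypican, was the 1 of these 18 genes whose groups did not overlap, against 642 higher and 559 lower of all 15964 genes. Its name is given after its values were seen. It gave 177, 197 and 136 in the STAT3-MER dishes, against 219, 199 and 200.4 in the WT dishes, below background throughout. Flrt3, a membrane protein that binds FGF receptors, gave 169, 114 and 170.2 in the STAT3-MER dishes, against 25.8, 136 and 30.2 in the WT dishes, and Klb, the co-receptor of endocrine FGFs, gave 31.3 to 46.4 in the STAT3-MER dishes and 40.2 to 98.0 in the WT dishes. Flrt3 and Klb also stayed below background. Of 15 genes of heparan sulfate synthesis and trimming, 5 were above background in all dishes (median -0.14). Extl3, a glycosyltransferase, was one of them, with 274, 432 and 452 in the STAT3-MER dishes, against 435, 451 and 538 in the WT dishes, and Sulf2, a sulfatase, gave 40.8 to 69.6 in the STAT3-MER dishes and 46.4 to 194 in the WT dishes.

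Of 15 adaptors and kinases between the receptor and ERK targets, 6 were above background in all dishes, with a median of 0.03. Braf, the kinase that activates MEK, gave 649.9, 767 and 1136 in the STAT3-MER dishes, against 1200.1, 934 and 1116 in the WT dishes (log2 fold change -0.37, standard error 0.27). Rps6ka3, a kinase activated by ERK, gave 835, 1112 and 649.8 in the STAT3-MER dishes, against 897, 1509.5 and 1305 in the WT dishes (log2 fold change -0.50, standard error 0.31). The groups overlapped for both.

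Of 14 feedback and target genes of ERK, 7 were above background in all 6 dishes, and the median was 0.33. Spred1, an inhibitor of the Ras to Raf step, gave 881, 739 and 775 in the STAT3-MER dishes, against 612, 138 and 329.6 in the WT dishes, and the groups did not overlap. It was above background in 3 of 3 STAT3-MER dishes and 0 of 3 WT dishes. On its chip, U74Bv2, the level itself was higher on the WT arrays (507 to 705) than on the STAT3-MER arrays (386 to 477). The signal of WT 1, 612, exceeded every STAT3-MER level, so this split depends in part on the level. When WT signals below the level are set to it, the means of the log2 signals give a ratio of at least 1.32-fold, with STAT3-MER cells higher. That ratio takes no account of the spread between dishes. The log2 difference was 1.28 (standard error 0.44, unadjusted p = 0.0164 by limma), and limma's adjusted p of 0.9996 did not pass the threshold. Flrt3, given above, also belongs to this list.

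The ES cell markers set the same comparison against genes of the undifferentiated state. Pou5f1 gave 6533, 3562 and 8348 in the STAT3-MER dishes, against 2157, 5824 and 5054 in the WT dishes. Nanog gave 8404, 11228 and 10689 in the STAT3-MER dishes, against 14179, 7593 and 7035 in the WT dishes, and Sox2 gave 10108, 12079 and 10453 in the STAT3-MER dishes, against 13355, 11645 and 8933 in the WT dishes. The groups overlapped for all 3, and 0 of the 10 markers passed the test. Tdgf1, a Nodal co-receptor, had the smallest p of them, and its log2 fold change was 0.48 (standard error 0.31).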

How the data were processed

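RNA of 3 STAT3-MER and 3 WT dishes was amplified by the authors in 2 rounds, labelled and hybridized to U74Av2, U74Bv2 and U74Cv2. The authors deposited 1 linear signal intensity per probe set and array, made with MAS5 according to the submitters' processing notes (version not given), with no detection call. The trimmed means of the arrays (2% left out at each end) were 500.1 to 500.3, so the arrays had already been scaled, and they were scaled once more to the mean of their chip. Amplification can widen the spread between dishes, and the number of arrays limits the precision. The study's own dChip values were not used here. One WT array whose labels name 2 chips was taken as U74Cv2, the chip whose table holds it.

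Log2(signal + 32) was fitted separately for each chip by lmFit and then eBayes (trend on) of limma 3.58.1 under R 4.3.3, as STAT3-MER minus WT and two-sided, with Benjamini-Hochberg adjustment over 36701 probe sets at 0.05. This scale understates changes of dim probe sets. The methods' t-test allowed unequal variances, a form the methods do not state. The fit was tested on simulated data in which each probe set varied independently. That checks the code and does not cover shifts that probe sets of a dish share. Python used scipy 1.17.1, numpy 2.4.6, pandas 2.3.3 and matplotlib 3.10.9.

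Gene names came from the chip annotation, updated through RefSeq genes of GRCm38.p6, with 29131 probe sets paired with 1 gene. The members and lists were chosen with earlier results of these data known. All 9 members were named, with Pou5f1, Sox2, Nanog, the 2 genes of each list with the smallest p (1 probe set per gene, without suffix first, then brightest) and the 3 genes most like Fgf4 and Fgfr1. The rule for the background genes was narrowed after their names were seen, because prefixes had caught unrelated genes. Alternatives were other scalings, pseudocounts of 8 and 100, a filter at a signal of 200, no trend, adjustment within chips, a replicate block, other forms of the t-test, a fold of 2, other background levels and each dish left out. Leaving out dishes for the background calls, and all alternatives for groups that do not overlap, were added after the data were seen.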

Additional observations from a re-analysis of the deposited data

How the results depend on the processing

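No FGF probe set was called under any alternative of scaling, pseudocount, filter, variance model, adjustment or dish left out, nor by the methods' criteria under theirs. At an unadjusted p under 0.05, Fgfr3 160919_r_at passed under each of them except the filter, which left it out, and the fit with no trend in the variance, where its p was 0.0990 and that of Fgfr2 168840_at 0.0449 in limma. The smallest adjusted p of the members was 0.978, with adjustment within each chip. Deviations of same-numbered dishes had correlations of 0.13 to 0.21 on U74Bv2, 0.07 to 0.13 on U74Cv2 and -0.34 to 0.29 on U74Av2. On U74Bv2 and U74Cv2 every dish correlated best with its own number, a hint from the data, while on U74Av2 the highest were STAT3-MER 2 with WT 1 (0.46) and STAT3-MER 1 with WT 2 (0.41). STAT3-MER 3 with WT 3 followed (0.29), and all other pairs on U74Av2 were negative. The numbers therefore did not pair the samples throughout. With the replicate block 0 FGF probe sets were called. That block used the label numbers, so on U74Av2, which carried 12 of the 17, it did not use all the pairs that correlated best. Its result cannot answer for that other pairing. The filter at a signal of 200 kept 8 of the 17.

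Of 102 log2 differences with 1 dish left out, 13 turned their sign, in 10 of the 17 probe sets; the cause was not tested. Of 85 with another scaling or pseudocount, 0 did. With 1 dish left out, the log2 difference ran between -0.306 and 0.0201 for Fgf4, -0.13 and 0.24 for Fgf5, -0.15 and 0.28 for Fgf7, -0.382 and 0.0587 for Fgf8 170994_r_at, and -0.0033 and 0.0558 for Fgf8 97742_s_at. For the receptors it ran between -0.34 and 0.34 for Fgfr1 139425_f_at, -0.0198 and 0.218 for Fgfr2 162171_f_at, -0.41 and 0.10 for Fgfr2 93090_at, -0.42 and 0.22 for Fgfr2 93091_s_at, and -0.223 and 0.0160 for Fgfr3 162253_i_at. The dishes whose absence turned the sign were STAT3-MER 1 for Fgf4 and Fgfr3, STAT3-MER 2 for Fgf5, STAT3-MER 3 for Fgf8 170994_r_at, WT 1 for Fgfr2 162171_f_at, and WT 2 for Fgf8 97742_s_at and both other U74Av2 probe sets of Fgfr2. For Fgf7 they were STAT3-MER 2, STAT3-MER 3 and WT 1, and for Fgfr1 139425_f_at STAT3-MER 2 and WT 3.

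The count above background moved with the level, as a lower or higher level must move it. In all STAT3-MER dishes it was 7 with the 90th percentile, 1 with the 99th, 7 with a fixed signal of 200 and 8 with the median of the array. Under the same levels it was 6, 1, 7 and 7 in all WT dishes, and 6, 1, 7 and 7 in all 6 dishes, so the 3 in STAT3-MER against 6 in WT was not kept under any of them. Fgf4 was above the level under each of them. The call for Fgfr2 depended on the level. Its 135404_at was above in all 6 dishes with the fixed signal of 200 and with the median. Its 93090_at was above in all STAT3-MER dishes, but not in all WT dishes, with the 90th percentile and with the median. Groups that did not overlap with STAT3-MER higher were 2 under quantile and median scaling and 3 or 4 with a dish left out. With STAT3-MER lower there were 0, and 1 without STAT3-MER replicate 2 (Fgf4), WT replicate 1 (Fgfr2 93090_at) or WT replicate 2 (Fgfr1 97509_f_at). The shares of all probe sets under these alternatives were not counted. With a dish left out, groups fail to overlap by chance more often, so these counts are not read as a result about the members.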

Other observations

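Among the ERK feedback and target genes, the 4 with the largest standard errors were singled out after their values were seen. Fos, an immediate early gene of ERK signalling, gave 269.8, 8205 and 1252 in the STAT3-MER dishes, against 4569.9, 262 and 2463 in the WT dishes. Egr1, another immediate early gene, gave 352, 2697 and 796 in the STAT3-MER dishes, against 2028, 519.9 and 2352 in the WT dishes. Both were lowest in STAT3-MER dish 1 and WT dish 2, the dishes with the lowest summed signal of fibroblast markers on the same chip. Etv4, a transcription factor that FGF signalling induces, gave 591, 204 and 394 in the STAT3-MER dishes, against 123, 668 and 233 in the WT dishes, and was highest within each group in those dishes. Dusp6, a phosphatase that acts on ERK, gave 977, 391.9 and 859 in the STAT3-MER dishes, against 137, 585 and 1231 in the WT dishes, with its highest values in STAT3-MER dish 1 and WT dish 3. The log2 fold changes were -0.03 (standard error 1.29) for Fos, -0.55 (standard error 0.76) for Egr1, 0.37 (standard error 0.57) for Etv4 and 0.51 (standard error 0.68) for Dusp6, none past the threshold in limma (adjusted p = 0.9996 for each). The part of fibroblast RNA in these values was not tested.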
